A study of Mus musculus with 4 samples.

Results

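The comparison of TET1 overexpression with its control was made over both collection times at once, with the MYC-TET1 libraries of 24 h and 36 h on one side and the MYC libraries of 24 h and 36 h on the other. FPKM is the read count of a gene divided by its length and by the depth of the library, and 0.1 was added to every FPKM before ratios were taken, so the fold of a weakly expressed gene comes out too small. A gene was called when both MYC-TET1 libraries were at least 1.5-fold above, or at least 1.5-fold below, both MYC libraries. Genes entered when protein_coding was among the transcript types listed for them and their mean FPKM over the 4 libraries was at least 2, which 8830 of 55385 genes met. Of these, 41 were called (0.464%), with 18 higher (0.204%) and 23 lower (0.26%) in MYC-TET1. These percentages are counts over the whole tested set, and the 41 genes were chosen by the same values that are described here.

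GC-1 is an immortalized mouse cell line of spermatogonial origin. The cells received, by lipid transfection, either the MYC plasmid, which is the control, or the MYC-TET1 plasmid, which carries TET1 for overexpression, and RNA was sequenced at 24 h and at 36 h. The control samples are also labelled untreated, while the study's methods say that they received the MYC plasmid. There was 1 library for each plasmid and time, so the 2 libraries of a plasmid differ in collection time as well, and nothing in the sources says that they came from separate cultures. The p-values below therefore rest only on the spread between these 4 libraries, of the gene itself and of the other genes tested. The share of cells that took up either plasmid is not given in the sources used here. In such bulk RNA, a change in a few cells and a smaller change in all cells cannot be told apart.

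TET1 is a dioxygenase that oxidizes 5-methylcytosine in DNA to 5-hydroxymethylcytosine, the first step towards an unmethylated cytosine. It carries a CXXC zinc finger that binds DNA rich in CpG, the dinucleotide in which most mammalian DNA methylation lies, and many promoters of active genes are dense in CpG. TET1 also recruits chromatin complexes, and both higher and lower expression of target genes are known after its gain or loss.

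The total counts were between 60611877 and 72547105 per library, and the tested genes held between 92.9% and 93.1% of them. Markers of undifferentiated spermatogonia were found at both extremes. Zbtb16, Ret, Nanos2 and Sall4 had no count in any of the 4 libraries, and Gfra1, the GDNF co-receptor of spermatogonial stem cells, lay between 0.322 and 0.366 FPKM. Of 22 genes in that list, 7 had no count in any library and 5 passed the filter. These 5 were Ccnd2 at 20.3 to 24.6 FPKM, Tspan8 at 13.8 to 17.4, Bmi1 at 7.49 to 8.08, Bcl6b at 3.88 to 5.64 and Etv5 at 2.79 to 3.19. None of 18 differentiating germ cell markers passed it, and 10 of them, Dazl and Stra8 among them, had no count in any library. The mesenchymal genes Col1a1 and Vim were abundant, at 209 to 229 and 198 to 234 FPKM, while 6 of 16 fibroblast and peritubular markers were under 1 FPKM in every library. Defining germ cell markers such as Zbtb16, Dazl and Stra8 were thus without a count, and the cells are called GC-1 cells below, by their line.

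Tet1 itself checks the labels. Its FPKM was 0.053 in MYC at 24 h, 0.056 at 36 h, and in the MYC-TET1 libraries 40.2 at 24 h and 19.6 at 36 h. The counts behind these were 61, 59, 49451 and 24467. Both MYC-TET1 libraries were far above both MYC libraries, and the 36 h library held less Tet1 RNA than the 24 h library. The count table does not separate transcripts of the plasmid from those of the cells' own gene on chromosome 10. In edgeR's quasi-likelihood test with time as a block, its log2 fold change was 9.03 ± 0.32 (SE), with a Benjamini-Hochberg adjusted p of 0.0294. The fit leaves 1 residual degree of freedom, and without the time block the adjusted p was 0.0541. For Tet1 the adjusted p thus depended on the tool. It was 0.0629 with limma on log2 FPKM, 0.532 in a robust edgeR fit and 1.13e-57 with DESeq2.

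Besides Tet1, 40 genes were called, with a mean fold over both times between 1.56 and 15.0 and a median of 2.29. The mean fold was at least 2 in 28 of them, 13 higher and 15 lower. The gap, meaning the nearest pair of values across the plasmids taken as a ratio of FPKM + 0.1, had a median of 1.88 over the 41 genes. Of the higher genes, 7, Tet1 included, were at least 2-fold up at both times, and of the lower genes, 11 were at least 2-fold down at both times. The called genes lay on 16 chromosomes. Their median mean FPKM was 6.51 for higher and 6.56 for lower genes, against 9.87 over all genes tested. Of the 40 genes, 18 had their larger ratio at 24 h and the others at 36 h.

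**Figure D1:**
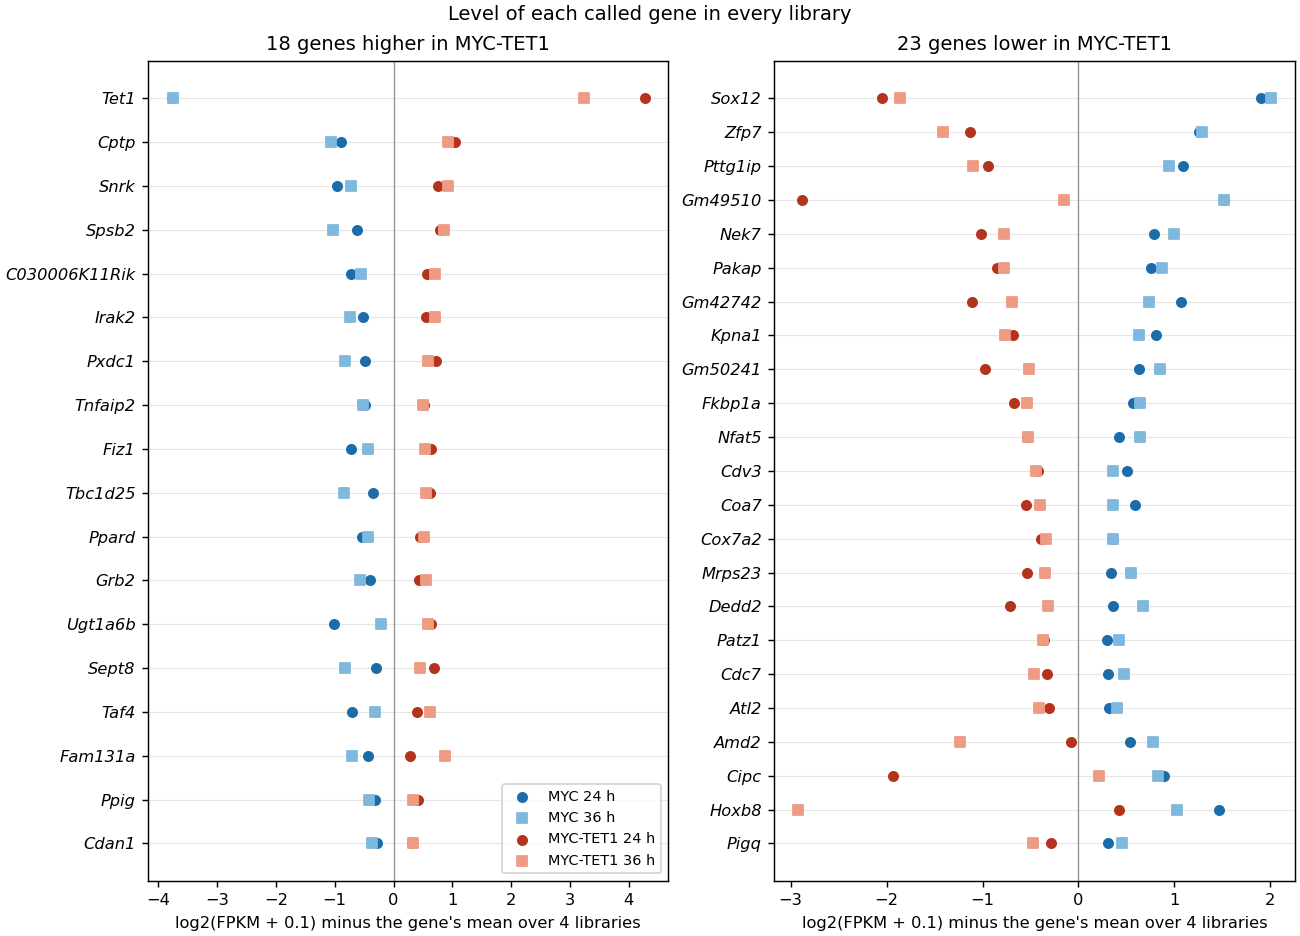
Each row is a called gene and each point 1 library, plotted as log2(FPKM + 0.1) minus the mean of that gene over the 4 libraries. Blue marks MYC and red MYC-TET1, with circles for 24 h and squares for 36 h. Rows are ordered by the gap between the plasmids, from Tet1 and Sox12 at the top down to Cdan1 and Pigq, and in Gm49510, Amd2, Cipc and Hoxb8 the MYC-TET1 libraries of the 2 times lie far apart.

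edgeR's quasi-likelihood test on the counts, with time as a block, called 10 of the 8830 genes (0.113%) at a Benjamini-Hochberg adjusted p under 0.05. All 10 were among the 41. Cptp and Tnfaip2 rose with Tet1, and Sox12, Pttg1ip, Nek7, Fkbp1a, Kpna1, Pakap and Zfp7 fell. At an unadjusted p under 0.05 there were 409 genes (4.63%). The rule selects on the same contrast, so that its overlap with the tests is not independent support. The other 31 called genes did not pass edgeR's adjusted threshold, and their values below are descriptions. The number of genes that passed depended on the tool. DESeq2 with the same block called 74 genes, 37 in each direction, among them 16 of 18 higher genes and 19 of 23 that were lower, limma on log2 FPKM called Pttg1ip and Sox12, and edgeR without the block called Sox12 alone. With edgeR's filterByExpr on all transcript types 8 genes were called, and Cptp and Tnfaip2 were not among them. With 1 library left out, the time block had to be dropped as well, and the plasmid with 1 library was assumed to vary like the other. These fits called 0 genes without either MYC library and 1, Tet1, without either MYC-TET1 library, to be read against the 1 call of the fit without the block.

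Since TET1 acts at CpG-rich DNA, the promoters of 4 genes that passed the test are shown, from 250 bases before to 50 bases after the RefSeq transcript start on GRCm38.p6, 5′ to 3′ on the strand of the gene. CG dinucleotides are in capitals and all other bases in lower case. Sox12 had the largest fall and Pttg1ip the highest level among the genes that fell, and Cptp and Tnfaip2 are the genes that rose besides Tet1. The windows are chr2:152397997-152398296 on the reverse strand for Sox12, chr10:77581405-77581704 on the forward strand for Pttg1ip, chr4:155869391-155869690 on the reverse strand for Cptp and chr12:111442411-111442710 on the forward strand for Tnfaip2.
Sox12: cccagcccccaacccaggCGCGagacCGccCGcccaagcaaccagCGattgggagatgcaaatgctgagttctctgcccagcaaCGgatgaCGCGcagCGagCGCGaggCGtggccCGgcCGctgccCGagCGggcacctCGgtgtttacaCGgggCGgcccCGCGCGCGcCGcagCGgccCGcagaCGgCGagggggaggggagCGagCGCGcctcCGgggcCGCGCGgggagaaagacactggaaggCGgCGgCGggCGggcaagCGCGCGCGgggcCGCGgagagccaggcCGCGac
Pttg1ip: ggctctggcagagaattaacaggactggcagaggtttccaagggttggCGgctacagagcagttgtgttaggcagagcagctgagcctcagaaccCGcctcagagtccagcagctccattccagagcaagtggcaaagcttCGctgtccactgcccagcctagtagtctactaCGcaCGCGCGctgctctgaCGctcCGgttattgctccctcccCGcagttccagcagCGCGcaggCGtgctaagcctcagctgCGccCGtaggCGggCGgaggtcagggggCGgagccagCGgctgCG
Cptp: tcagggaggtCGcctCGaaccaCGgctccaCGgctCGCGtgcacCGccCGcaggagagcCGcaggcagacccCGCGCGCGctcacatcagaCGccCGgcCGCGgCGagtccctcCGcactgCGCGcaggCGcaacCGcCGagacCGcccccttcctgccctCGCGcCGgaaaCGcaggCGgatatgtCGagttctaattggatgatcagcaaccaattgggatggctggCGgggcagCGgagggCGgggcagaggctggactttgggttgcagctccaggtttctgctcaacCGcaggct
Tnfaip2: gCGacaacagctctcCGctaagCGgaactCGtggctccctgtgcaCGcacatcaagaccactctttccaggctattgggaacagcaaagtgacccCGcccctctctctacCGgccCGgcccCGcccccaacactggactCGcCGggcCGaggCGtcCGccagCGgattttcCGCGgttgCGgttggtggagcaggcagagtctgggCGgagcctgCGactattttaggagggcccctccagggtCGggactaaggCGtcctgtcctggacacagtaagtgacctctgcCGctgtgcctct

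These windows held 47 CG dinucleotides in Sox12, 20 in Pttg1ip, 35 in Cptp and 23 in Tnfaip2. A RefSeq window was found for 15 of the 18 higher genes, with a median of 23 CG, and for 18 of the 23 lower genes, with a median of 24 CG. Windows were matched by symbol and can belong to another transcript start. The one for Pakap lies at chr4:57434225-57434524, while the tested gene spans 57717657 to 57896982. Over 7112 tested genes with a window the median was 22, and over 28 genes of the crossed contrast described below it was 20.5. The letters GGGCGG, the core of a GC box, or their reverse complement CCGCCC occurred in 80.0% of the windows of higher genes (12 of 15), 77.8% of those of lower genes (14 of 18), 64.3% of those of the crossed contrast (18 of 28) and 68.8% of all windows. A match is a description of letters and not a bound site. DNA methylation was not analysed here.

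Sox12, a SOXC-group transcription factor of developing tissues, had the largest fall of the genes that passed the test. Its FPKM was 22.7 and 24.4 in MYC at 24 h and 36 h, and 1.37 and 1.57 in MYC-TET1. Both MYC-TET1 values were thus far below both MYC values, and the gap was 13.6-fold. The edgeR log2 fold change was -3.99 ± 0.078 (SE), with an adjusted p of 0.00786 under edgeR's quasi-likelihood test. No other gene with a count in any library lies within 5 kb of Sox12 (chromosome 2, 152393611 to 152398063 in the coordinates of the deposited table).

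Zfp7, a zinc finger gene on chromosome 15, stood at 11.1 and 11.4 FPKM in MYC and at 2.05 and 1.67 in MYC-TET1. Its edgeR log2 fold change was -2.60 ± 0.12 (SE), with an edgeR adjusted p of 0.0368. Like Sox12, it has no other gene with a count within 5 kb, and its mean fold over both times was 5.83. Reads shared with other zinc finger genes of similar sequence were not examined.

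Further called genes with roles in transcription and chromatin did not pass the adjusted edgeR test. Ppard, a nuclear receptor for fatty acids, was at 4.17 and 4.53 FPKM in MYC and at 8.43 and 8.82 in MYC-TET1. Taf4, a subunit of the general factor TFIID, was at 2.96 and 3.92 in MYC and at 6.49 and 7.62 in MYC-TET1. Fiz1, a zinc finger protein that binds the receptor Flt3, was at 10.01 and 12.3 in MYC and 26.1 and 24.1 in MYC-TET1. Their mean folds were 1.96, 2.04 and 2.25. Nfat5, a factor of the osmotic stress response, was lower, at 2.56 and 2.996 FPKM in MYC and 1.26 and 1.28 in MYC-TET1. Patz1, a zinc finger regulator with an AT hook, was at 3.54 and 3.86 in MYC and 2.20 and 2.18 in MYC-TET1. Cdan1, which binds the histone chaperone Asf1, was just inside the threshold at 1.72 and 1.61 FPKM in MYC and 2.62 and 2.65 in MYC-TET1.

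In Hoxb8, a homeobox gene of the HoxB cluster, the values were 4.05 and 2.97 FPKM in MYC and 1.92 and 0.098 in MYC-TET1. The fall was thus far larger at 36 h, where 21 counts were left, and the edgeR adjusted p was 0.847. Cipc, which encodes a repressor of the circadian factor CLOCK and lies outside the naming rule, was named after its values were seen because it has the opposite pattern. It stood at 3.58 and 3.43 FPKM in MYC and at 0.42 and 2.21 in MYC-TET1, with a log2 ratio of -2.82 at 24 h and of -0.61 at 36 h.

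Signalling genes were found in both directions. Nek7, a mitotic kinase of the NIMA family that also serves the NLRP3 inflammasome, was at 16.9 and 19.5 FPKM in MYC and at 4.73 and 5.63 in MYC-TET1, with an edgeR log2 fold change of -1.81 ± 0.053 (SE) and an edgeR adjusted p of 0.0209. Fkbp1a, which encodes FKBP12, the binding protein of rapamycin and FK506, was at 92.1 and 96.5 in MYC and 38.8 and 42.8 in MYC-TET1. Its edgeR log2 fold change was -1.20 ± 0.045 (SE), with an edgeR adjusted p of 0.0294. Both genes passed the test. Pakap (ENSMUSG00000038729), the fused paralemmin and A-kinase anchor gene, was at 10.1 and 11.001 FPKM in MYC and at 3.28 and 3.44 in MYC-TET1, with an edgeR adjusted p of 0.0294. Another row of the table carries the same symbol and overlaps it, and the fall was also called when the counts of overlapping rows were summed.

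Grb2, the adaptor that links receptor tyrosine kinases to Ras, was at 22.2 and 19.7 FPKM in MYC and 39.6 and 43.5 in MYC-TET1, with an edgeR adjusted p of 0.181. Irak2, a kinase of the interleukin-1 receptor pathway, was at 2.85 and 2.44 in MYC and 6.16 and 6.83 in MYC-TET1. Snrk, an AMPK-related kinase, was at 1.082 and 1.28 in MYC and 3.77 and 4.24 in MYC-TET1, with an edgeR adjusted p of 0.082. None of the 3 passed the adjusted test, and their mean folds were 1.98, 2.41 and 3.21. Cdc7, the kinase that fires replication origins, was on the lower side at 5.88 and 6.63 FPKM in MYC and 3.76 and 3.40 in MYC-TET1. Dedd2, a death effector domain protein, was at 3.44 and 4.32 in MYC and 1.58 and 2.11 in MYC-TET1. Neither passed the adjusted test.

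Cptp, the transfer protein of ceramide-1-phosphate, rose the most after Tet1 among genes that passed the test. Its FPKM was 3.91 and 3.47 in MYC and 15.3 and 14.1 in MYC-TET1, a mean fold of 3.92, and the edgeR log2 fold change was 2.004 ± 0.092 (SE) with an edgeR adjusted p of 0.0374. Tnfaip2, a gene induced by tumour necrosis factor that shapes membrane protrusions, was at 13.0 and 12.7 FPKM in MYC and at 26.1 and 25.9 in MYC-TET1. Its edgeR log2 fold change was 1.02 ± 0.048 (SE), with an edgeR adjusted p of 0.0374. Both genes had nearly the same level at 24 h and 36 h within each plasmid. Within 5 kb of Cptp lie Tas1r3 and Ints11, and the rule no longer called Cptp when the counts of all genes in that window were summed.

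Kpna1, an importin alpha that carries proteins into the nucleus, fell from 15.5 and 13.7 FPKM in MYC to 5.46 and 5.14 in MYC-TET1. The edgeR log2 fold change was -1.45 ± 0.058 (SE), with an edgeR adjusted p of 0.0294. Pttg1ip, which encodes a binding partner of securin, had the highest level of the genes that fell, at 123 and 112 FPKM in MYC and at 30.2 and 27.1 in MYC-TET1. Its edgeR log2 fold change was -2.03 ± 0.042 (SE), with an edgeR adjusted p of 0.00786. For Pttg1ip the counts were 35573 and 29154 in MYC and 9335 and 8500 in MYC-TET1.

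Other genes of membranes and trafficking were described by the rule alone. Tbc1d25, a Rab GTPase-activating protein of autophagosomes, was at 5.23 and 3.71 FPKM in MYC and 10.4 and 9.93 in MYC-TET1. Sept8, a septin, was at 14.2 and 9.77 in MYC and 28.1 and 23.9 in MYC-TET1, and Pxdc1 was at 5.23 and 4.14 in MYC and 12.2 and 11.2 in MYC-TET1. In Tbc1d25 and Sept8 the MYC libraries differed between the times as well, and all 3 genes had an edgeR adjusted p of 0.141 or more. Atl2, an atlastin of the endoplasmic reticulum, was lower, at 8.59 and 9.13 FPKM in MYC and 5.52 and 5.14 in MYC-TET1. Pigq, an enzyme of GPI anchor synthesis, was the lower gene nearest to the threshold, at 12.2 and 13.5 in MYC and 8.06 and 7.06 in MYC-TET1.

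The next genes encode mitochondrial proteins, were lower in MYC-TET1 and did not pass the adjusted edgeR test. They were grouped after their values were seen, and mitochondrial genes were not counted as a list. Cox7a2, a subunit of cytochrome c oxidase, was at 78.1 and 77.6 FPKM in MYC and 46.4 and 48.0 in MYC-TET1. Mrps23, a protein of the small mitochondrial ribosomal subunit, was at 36.5 and 42.2 in MYC and 19.95 and 22.7 in MYC-TET1. Coa7, an assembly factor of cytochrome c oxidase, was at 4.55 and 3.85 in MYC and 2.01 and 2.24 in MYC-TET1. In each of them the lower MYC value was at least 1.60-fold above the higher MYC-TET1 value. Their edgeR adjusted p-values were 0.181 for Cox7a2, 0.141 for Mrps23 and 0.502 for Coa7.

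Of the remaining genes, Ppig, a nuclear cyclophilin, was at 5.04 and 4.70 FPKM in MYC and 8.43 and 7.98 in MYC-TET1. Cdv3 was at 41.1 and 37.2 in MYC and 21.7 and 21.3 in MYC-TET1, with an edgeR adjusted p of 0.0724. Amd2, an enzyme of polyamine synthesis, was at 8.33 and 9.90 in MYC and 5.40 and 2.37 in MYC-TET1, and it has a near-identical copy in Amd1, with which reads could be shared. C030006K11Rik was at 3.45 and 3.90 in MYC and 8.57 and 9.39 in MYC-TET1. Except for Amd2, the 2 times of each plasmid were close to each other in these genes.

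Some of the called genes share their locus with a neighbour. Neighbours were considered only if they had a count in some library. Of the higher genes, 11 of 18 (61.1%) overlapped such a gene on either strand, and of the lower genes 8 of 23 (34.8%), against 42.5% of all genes tested. When the counts of overlapping genes were summed, 36 of the 41 genes were called again. The 5 genes that were not are Spsb2, which adapts targets to a ubiquitin ligase, Ugt1a6b, a glucuronosyltransferase, and Fam131a, Gm49510 and Gm50241. Spsb2 was at 3.40 and 2.55 FPKM in MYC and 9.15 and 9.60 in MYC-TET1, but together with Tpi1 on the other strand its locus held 75555 and 61261 counts in MYC and 83227 and 73934 in MYC-TET1. Spsb2 itself had 421 and 284 counts in MYC and 1210 and 1287 in MYC-TET1, too few to move that sum, so the lost call says nothing about its reads. For Gm49510, which overlaps Sh3bp1 and Pdxp on its own strand, the FPKM was 5.89 and 5.92 in MYC and 0.184 and 1.78 in MYC-TET1, while the summed locus held 5436 and 4919 counts in MYC and 5606 and 6110 in MYC-TET1. Ugt1a6b, which shares exons with the other Ugt1a genes, was at 1.05 and 1.91 FPKM in MYC and 3.50 and 3.38 in MYC-TET1. Fam131a, which overlaps Clcn2, was at 1.32 and 1.07 in MYC and 2.22 and 3.41 in MYC-TET1, and Gm50241, which overlaps Chtf8, was at 2.94 and 3.44 in MYC and 0.90 and 1.27 in MYC-TET1. Gm42742, which overlaps the near-identical genes Pagr1a and Pagr1b, was at 7.89 and 6.25 in MYC and 1.67 and 2.25 in MYC-TET1 and was called also in the summed counts. With the counts of all genes within 5 kb summed, 28 of the 41 genes were called, and besides those 5 the ones no longer called were Cptp, C030006K11Rik, Irak2, Cdan1, Gm42742, Cdv3, Dedd2 and Hoxb8. The strand setting of the counting is not given in the sources used here, and whether reads of overlapping genes were divided between them was not tested. A sum that is mostly the neighbour's counts cannot show a change of the called gene.

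The threshold was not a natural break in the values. Just inside it, the gap was 1.57 in Ppig and 1.501 in Cdan1 on the higher side, and 1.52 in Hoxb8 and 1.51 in Pigq on the lower side. Just outside, it was 1.49 in Max, the dimerization partner of MYC proteins, and 1.46 in Zfp646 on the higher side, and 1.49 in Pigc and 1.45 in Gnpnat1 on the lower side. Max was at 7.26 and 6.32 FPKM in MYC and 10.9 and 11.8 in MYC-TET1.

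The number of called genes was set against a pairing that neither plasmid nor time separates. In this crossed contrast, the 24 h control and the 36 h overexpression library stood against the other two, so that it uses the same 4 libraries and the same rule. It called 39 genes (0.442%), 17 higher and 22 lower on the side of the 24 h control, against 41 between the plasmids. At 2-fold, 17 genes were called between plasmids and 20 in the crossed contrast, and at 3-fold, 6 and 7. The median gap was 1.88 for the plasmid genes and 2.01 for the crossed genes. At 1.5-fold the plasmid and crossed numbers thus differed by 2 genes, and at 2-fold and 3-fold the crossed number was the larger. The contrast of 36 h with 24 h, both plasmids combined, called 134 genes by the same rule, 39 higher and 95 lower at 36 h.

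**Figure D2:**
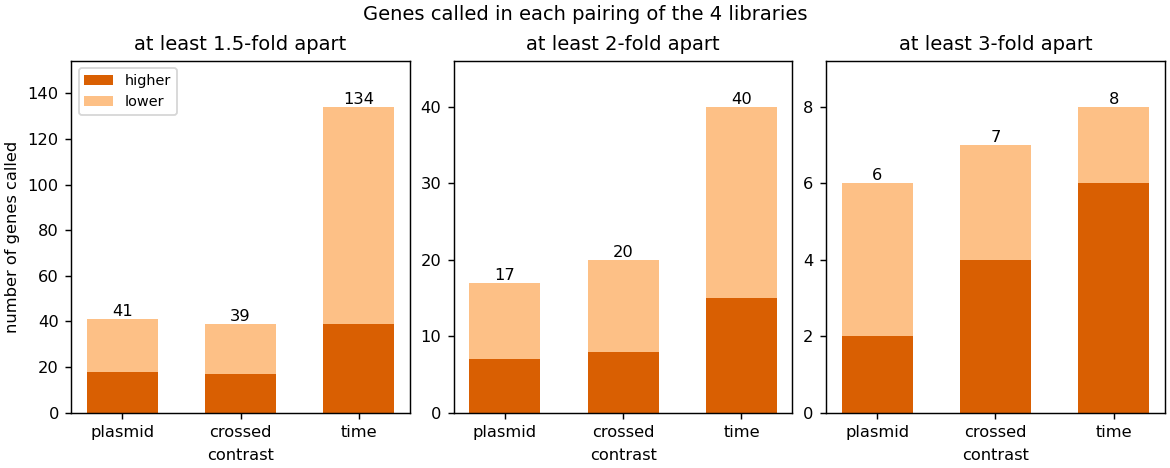
Bars give the number of genes called when the 4 libraries are paired by plasmid, crossed or by time, at thresholds of 1.5-fold, 2-fold and 3-fold, each panel with its own axis from 0. The dark part counts genes higher in MYC-TET1, in MYC 24 h and MYC-TET1 36 h, or at 36 h. Plasmid and crossed bars stand at 41 and 39, 17 and 20, and 6 and 7, while the time bar is the highest in each panel.

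The largest crossed gap was 12.3, in Gm20708. Between the plasmids the gap was 126 in Tet1, 13.6 in Sox12 and 5.23 in Zfp7, the next gene. The 4 crossed genes described here are the 2 with the largest gap in each direction. Itprip, an inositol trisphosphate receptor-interacting gene, had 24.9 FPKM in the control and 2.72 after overexpression at 24 h, and 2.76 and 23.7 at 36 h. Peg3, an imprinted zinc finger gene, was at 7.28 and 0.715 at 24 h and at 0.93 and 6.48 at 36 h. Pygo2, a coactivator of Wnt signalling, went the opposite way, with 1.36 and 12.2 at 24 h and 14.5 and 1.55 at 36 h, and so did Gm20708, with 0.15 and 4.08 at 24 h and 3.69 and 0.209 at 36 h. In all 4 genes the direction of the plasmid ratio turned between 24 h and 36 h.

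Over the tested genes, 8311 (94.1%) differed by less than 1.5-fold between the plasmids at both times. At 24 h, 290 genes were at least 1.5-fold apart, and at 36 h, 323. Of these, 94 were at least 1.5-fold apart at both times, 47 in the same direction and 47 in opposite directions.

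**Figure D3:**
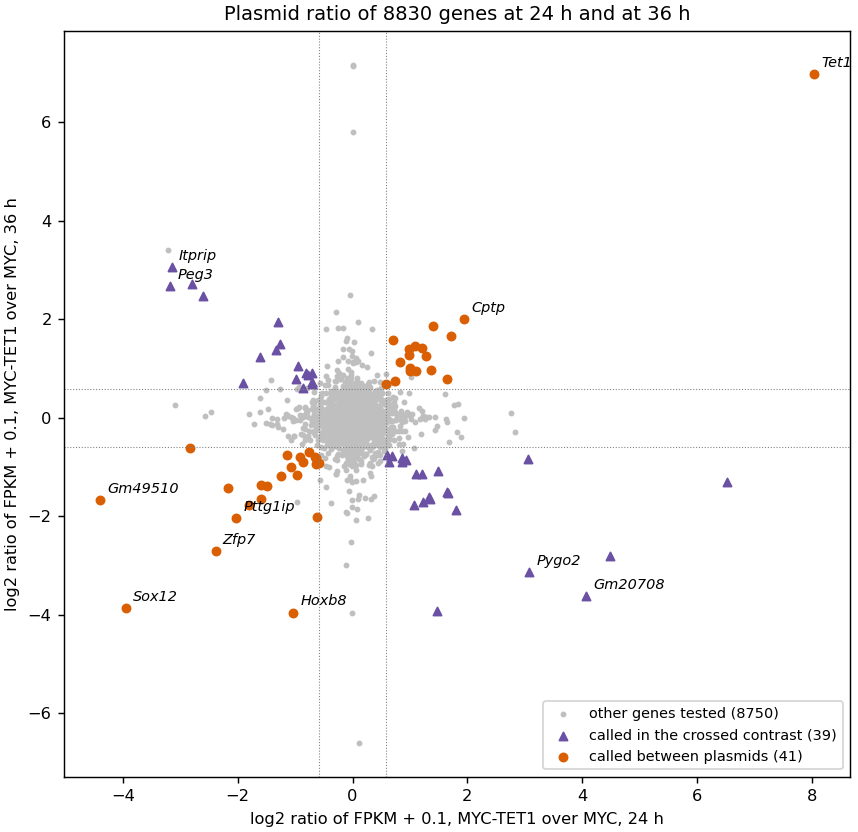
Each point is 1 of 8830 genes, with the log2 ratio of FPKM + 0.1 of MYC-TET1 over MYC at 24 h across and at 36 h upwards, and dotted lines at 1.5-fold. The 41 genes called between plasmids lie in the upper right and lower left corners, the 39 crossed genes in the upper left and lower right, and most other genes lie around 0 or along an axis.

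Lists of genes for pathways and cell types held no called gene besides Tet1. Of 20 lists, 18 had at least 1 tested member, and 229 distinct members other than Tet1 were tested. None of the 229 was called by the rule, against 0.464% of all genes tested, or by edgeR's adjusted test, against 0.113%. These background shares are so low that a list of this size would hold few calls or none. An edgeR unadjusted p under 0.05 was found for 9 of them (3.93%, against 4.63% of all genes), and the lowest edgeR adjusted p among them was 0.35. DESeq2 called 1 of them, Clu, which encodes the secreted chaperone clusterin and stands in the Sertoli cell list. Its FPKM was 75.9 and 110 in MYC and 100 and 135 in MYC-TET1, higher in MYC-TET1 at each time but overlapping between the plasmids. The median of the mean log2 ratio over all 8830 genes was -0.001.

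None of the other enzymes of DNA methylation and demethylation was called. Of 15 genes in this list 9 were tested, and their median mean log2 ratio was 0.017. Dnmt1, the maintenance methyltransferase, was at 34.4 and 36.1 FPKM in MYC and 38.0 and 35.8 in MYC-TET1. Tdg, the glycosylase that removes oxidized methylcytosine, was at 3.89 and 3.75 in MYC and 4.26 and 4.04 in MYC-TET1. Uhrf1, which recruits Dnmt1 to replicating DNA, was at 56.2 and 55.0 in MYC and 56.9 and 55.7 in MYC-TET1. In these 3 genes the plasmids differed by less than 1.5-fold at both times. Smug1, a uracil-DNA glycosylase and the tested member with the most extreme mean ratio after Tet1, was at 4.87 and 4.94 in MYC and 4.64 and 3.24 in MYC-TET1, with a log2 ratio of -0.07 at 24 h and -0.59 at 36 h. Tet3, a sister enzyme of TET1 that missed the filter with a mean FPKM of 1.91, was at 0.705 in MYC at 24 h and between 2.23 and 2.39 in the other 3 libraries.

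Genes named in the study were close to equal between the plasmids over both times. Of 19 such genes 12 were tested, and only Tet1 among them was called. Some of them, such as Sp1 and Daxx, were picked by the study from these samples, so the list is not independent of them. Sp1, the GC box-binding factor, was at 10.4 and 10.2 FPKM in MYC and 9.77 and 10.5 in MYC-TET1, with an edgeR log2 fold change of -0.02 ± 0.061 (SE) and an edgeR adjusted p of 0.964. Daxx, a histone H3.3 chaperone, was at 30.9 and 17.9 in MYC and 29.4 and 19.4 in MYC-TET1, so that it differed between the times and not between the plasmids. Trp53 was at 67.9 and 76.1 in MYC and 70.1 and 72.9 in MYC-TET1, and the proliferation gene Pcna at 191 and 168 in MYC and 188 and 178 in MYC-TET1. For Jun, Nfkb1, Cdk9, Klf3, Kdm6a, Ccna2 and Ccne1 the edgeR adjusted p was 0.847 or more. Pbx3, Gfra1, Kit, Ddx4 and Prdm1 missed the filter, and Zbtb16 and Dazl had no count.

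The SP and KLF family, with 10 of 15 genes tested, had a median mean log2 ratio of -0.044. Klf10, a factor induced by TGF-beta, was its lowest member, at 19.0 and 19.5 FPKM in MYC and 18.8 and 7.91 in MYC-TET1, a difference of the 36 h libraries alone. The 31 genes of the cell cycle and DNA replication were all tested and had a median of -0.010. Cdk2 was at 4.90 and 9.70 in MYC and 10.1 and 9.56 in MYC-TET1, so that the MYC library at 24 h stood apart from the other 3. Ccnd3 was at 26.3 and 15.0 in MYC and 28.6 and 8.33 in MYC-TET1, and neither gene was called. The median was -0.007 for 17 of 20 p53 target genes.

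The responses to stress and to foreign DNA moved little with the plasmid. The interferon and foreign DNA list had the highest median of any list, 0.10 over 28 of 30 genes, with a median of -0.024 at 24 h and 0.258 at 36 h. Ifit3, an interferon-induced antiviral gene, had 413 FPKM in the control and 407 after overexpression at 24 h, and 102 and 156 at 36 h. Its levels differed far more between the times than between the plasmids, and the 1.5-fold rule called 14 of the 28 genes between the times, against 1.52% of all genes tested. The median was 0.018 for 21 of 22 genes of the integrated stress and unfolded protein response, in which Atf4, the main transcription factor of the stress response, was at 138 and 114 in MYC and 148 and 254 in MYC-TET1. Here the MYC-TET1 library at 36 h stood alone above the others. The NF-kappa B list had a median of -0.030 over 19 of 25 genes, the immediate early genes 0.044 over 15 of 21 and the heat shock genes -0.017 over 9 of 11.

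Metabolic lists were likewise flat between the plasmids. The median was 0.030 for the 20 genes of cholesterol synthesis and 0.004 for 18 of 20 genes of hypoxia and glycolysis. Gapdh, the glycolytic enzyme that the study used as a reference gene, was at 19.8 and 78.1 FPKM in MYC and 22.2 and 95.3 in MYC-TET1. It was thus far higher at 36 h with either plasmid, and its edgeR adjusted p between the plasmids was 0.825. Imprinted genes, whose expression depends on DNA methylation, had a median of -0.047 over 5 of 22 genes, and Peg3 among them was called in the crossed contrast. Grb10, Igf2r, Gnas and Impact had mean log2 ratios between -0.06 and 0.02.

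No tested marker of a cell type was called between the plasmids by the rule or by edgeR. The median was -0.070 for 5 of 22 markers of undifferentiated spermatogonia, -0.057 for the 1 tested of 18 germline genome defence genes, Tdrkh, and -0.051 for 5 of 12 Sertoli cell markers. It was -0.023 for 10 of 16 fibroblast and peritubular markers and -0.078 for 4 of 10 macrophage and blood markers. None of 8 Leydig cell markers passed the filter. The summed FPKM of the fibroblast list was 1258 and 1214 in MYC and 1224 and 1211 in MYC-TET1. Wt1, a transcription factor of Sertoli and mesothelial cells, was at 14.0 and 25.6 in MYC and 13.2 and 13.4 in MYC-TET1, so that the MYC library at 36 h stood apart.

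**Figure D4:**
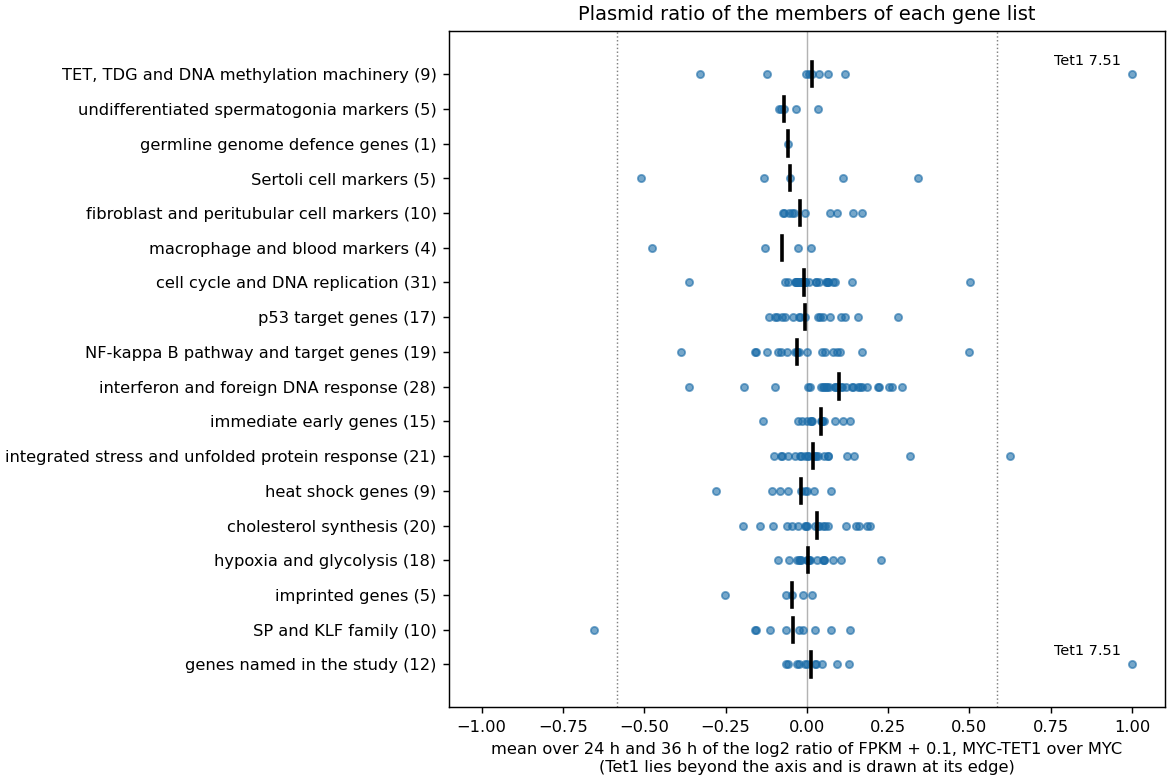
Points are the tested members of each list, placed by the mean over both times of the log2 ratio of FPKM + 0.1 of MYC-TET1 over MYC, with the number tested after the name of the list. Black bars are list medians and dotted lines mark 1.5-fold. Besides Tet1, drawn at the edge of the axis, 2 members, Klf10 and Atf4, lie outside the lines, and neither was called by the rule, since in each it was 1 library that stood apart.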

How the data were processed

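RNA-seq counts and FPKM values of 4 libraries were taken from 1 table that the authors deposited. The counts are whole numbers and were not normalized by the authors, and the authors derived the FPKM values from the reads. The submitters' processing notes name Bowtie 0.12.2 and the builds mm8 and mm9. The counting tool and its strand setting are not given in the sources used here. Coordinates are those of the deposited table, and promoter windows are RefSeq sequences of GRCm38.p6, matched by symbol. No coordinate was converted.

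Groups came from the labels. The 24 h and 36 h libraries of a plasmid were its 2 samples. The rule used FPKM + 0.1, a mean FPKM of at least 2 and a threshold of 1.5-fold, with no test. The test was edgeR 4.0.16 (quasi-likelihood, TMM) on counts with time as a block, and adjustment over 8830 genes. The standard error was taken as the absolute log2 fold change over the square root of F. DESeq2 1.42.0, with 172 adjusted p-values given as NA and kept so, and limma 3.58.1 on log2(FPKM + 0.1) were alternatives. Other alternatives were pseudocounts, filters, thresholds, scalings, transcript types, and leaving out each library. Chosen after seeing the data were summed counts of overlapping or nearby genes (within 5 kb), protein_coding as the sole type, a 3-fold threshold and a robust fit.

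The members and lists were chosen with earlier results of these data known. Named were all called genes of a direction with at most 20, otherwise the 20 with the largest gap, genes nearest the threshold, the genes named in the study apart from MAGE4, whose symbol was not matched, and what is not reported here, up to 4 members of each list with the most extreme ratios, and the 2 crossed genes with the largest gap in each direction. Cipc and the other genes described as examples, such as Col1a1, Vim, Uhrf1 and Tet3, were named after their values were seen. The scripts were tested on simulated counts. Python 3.11.15, pandas 2.3.3, numpy 2.4.6, matplotlib 3.10.9 and R 4.3.3 were used.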

Additional observations from a re-analysis of the deposited data

Results flagged for a closer look

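The plasmid ratio turned direction between 24 h and 36 h in 39 genes that were at least 1.5-fold apart in the crossed contrast. They were noted because the MYC-TET1 library was above the MYC library at one time and below it at the other, and this difference between times was not tested, since there is 1 library for each plasmid and time. Taken as MYC-TET1 over MYC, the log2 ratio was -3.15 at 24 h and 3.06 at 36 h in Itprip, and -3.18 and 2.68 in Peg3. It was 4.06 and -3.62 in Gm20708, and 3.07 and -3.14 in Pygo2.

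Genes without a protein_coding transcript type were outside the comparison. Of 1080 such genes with a mean FPKM of at least 2, the same rule called 9 higher and 15 lower in MYC-TET1 (2.22% together), and 13 in the crossed contrast (1.2%). They were noted because the comparison does not use these genes. The small RNA gene Snora7a had 4 and 4 counts in MYC and 67 and 62 in MYC-TET1, and the pseudogene Gm14414 had 716 and 657 counts in MYC and 217 and 281 in MYC-TET1. Gm22357 and Gm23212, small RNA genes of chromosome 1, moved in opposite directions. Gm22357 had 1 and 1 counts in MYC and 73 and 45 in MYC-TET1, and Gm23212 had 33 and 28 in MYC and 1 and 1 in MYC-TET1. Counts of these small RNAs are low, and reads shared with similar genes were not examined.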

How the results depend on the processing

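The 41 genes of the plasmid contrast became 26 with a mean FPKM of at least 5, 142 without a filter on low values, 17 at 2-fold, 65 with all transcript types, 9 with protein_coding as the sole type and 6 at 3-fold. The crossed contrast, with 39 genes, gave 136 without the filter, 20 at 2-fold, 24 with counts summed within 5 kb, 8 with protein_coding as the sole type and 7 at 3-fold. With counts summed within 5 kb, the plasmid contrast gave 30. Leaving out 1 library gave 116 to 143 genes between plasmids and 117 to 144 crossed, a larger number by construction, since 3 libraries have to meet fewer conditions.

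Without the replicate block, which here is the collection time, edgeR called 1 gene in place of 10. DESeq2 called 74, edgeR without a filter 2 and limma 2. With filterByExpr on all transcript types, 17119 genes were tested and 8 called, without Cptp and Tnfaip2. Leaving out 1 library, which also drops the block, gave 0 to 1, against 1 without the block alone. A robust edgeR fit called 12, of which 9 were among the 10. It no longer called Tet1 (adjusted p 0.532) and gained Cdv3, Pcdhga9 and Snrk. The causes were not tested. Over 59 genes (the 41 called and the others named in the study) and 9 settings, the mean log2 ratio moved by less than the spread in 398 of 531 values and by more in 133. Its sign turned in 0 of 369 values of called genes and in 22 of 162 values of study genes that were not called. The spread is the standard deviation of the 24 h and 36 h log2 ratios, which is 0 in Zbtb16 and Dazl. Settings that left out 1 library compared unlike times, so a difference between times enters their values. Daxx, for example, was at 0.415 without MYC replicate 2 and at -0.367 without MYC replicate 1.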

Other observations

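Of 81 list members with a count that missed the filter on low values, 3 met the 1.5-fold rule (3.7%), against 1.54% of the 6549 protein_coding genes under the filter with a count. Igf2, an imprinted growth factor, had 14 and 9 counts in MYC and 126 and 277 in MYC-TET1, at 0.596 FPKM or less in every library. Dhh, a hedgehog ligand of Sertoli cells, had 225 and 175 counts in MYC and 81 and 10 in MYC-TET1. Lyz2, the macrophage lysozyme, had 61 and 93 counts in MYC and 0 and 0 in MYC-TET1. The 3 were found after their values were seen, and none was tested. Without the filter, the rule called 142 genes between the plasmids and 136 in the crossed contrast, so such calls were nearly as frequent there.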
